A study of Mus musculus with 24 samples.

Results

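Macrophages of Ltb4r2-/- mice, stimulated to the M1 or the M2 state, were compared directly with each other in 8 libraries, 4 of each state, chosen by their labels from the 24 libraries of the series. The mice, on the C57BL/6J background, lack the receptor BLT2 in every cell, so both states share the deletion, and sex and age of the donors are not given in the labels. Bone marrow cells were grown for 7 days with M-CSF at 10 ng/ml, and the macrophages were then given LPS at 10 ng/ml and IFN-γ at 25 ng/ml (M1), or IL-4 at 10 ng/ml (M2), for 16 h. WT macrophages in M1 and M2 and unstimulated Ltb4r2-/- macrophages (M0) served only for reference. The labels call the 4 libraries of a group biological replicates and do not say whether the same mice gave the M1 and the M2 cells. Headers of the count columns put the replicate number after the genotype and before the state, without saying what it numbers. Libraries were compared unpaired, and a fit with the replicate number as a block is given at the end.

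LPS is sensed by TLR4, which turns on NF-kB and the secretion of type I interferon. IFN-γ acts through its own receptor, and together these signals are known to raise nitric oxide synthase, interferon-induced GTPases, antigen-presentation genes and the chemokines that draw T cells. IL-4 activates STAT6, which in mouse macrophages is known for raising arginase, resistin-like alpha and the mannose receptor. Macrophages in vivo are not limited to these states, and the labels define the groups by the added agents alone.

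The 4 M1 libraries held 465765 to 612130 counts and the 4 M2 libraries 427824 to 595240, with 5933 to 7289 genes detected in each. The targeted gene, Ltb4r2, had 0, 0, 2 and 0 counts in M1 and 0, 0, 0 and 2 in M2, too few to check the labels. The marker lists for stromal and erythroid cells, mast cells and basophils, neutrophils and lymphocytes (B, and T with NK) had no member with enough counts for a test. The summed level of each of these lists was at most 24.2 CPM (counts scaled to the size of the library) in any of the 8 libraries. Such a low sum does not show that these cells were absent. The macrophage gene Adgre1 itself averaged 21.7 CPM in M2 and 83.3 in M1. Among 11 dendritic cell markers, 2 were tested, and they differed in opposite directions. Xcr1, the receptor of the chemokine XCL1, had 349, 391, 286 and 378 counts in M1 and 33, 52, 13 and 30 in M2, and Clec9a, a receptor for dead cells, had none in M1 and 17, 13, 24 and 35 in M2. The part of other cells in the results was not tested beyond these values. In bulk RNA, fewer cells of a type and less RNA per cell cannot be told apart.

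A property of the counting touches many of the genes named here: of 150 symbols chosen for description, 96 have an exon that overlaps an exon of the opposite strand and 54 have none. Libraries were prepared with a strand-specific kit, but whether reads were counted by strand, and by which, is not given in the sources used here, and genes whose exons overlap an exon of the opposite strand (24.1% of the genes with a position) held 90.6% of the placed counts in M1 and 90.3% in M2. Among 160 pairs of an antisense RNA and an overlapping protein-coding gene with at least 100 counts, the antisense symbol held more in 142. Tsix, the antisense of Xist, had 1203 and 1407 counts in M1 replicates 2 and 3 and 1257 and 2538 in M2 replicates 2 and 3, against at most 10 for Xist in any of the 8 libraries. In replicates 1 and 4 of both states Tsix and Xist had no counts, so the split by replicate number was the same in M1 and M2. Reads of a gene and of its opposite-strand partner cannot be told apart here. Symbols are therefore given as the count table has them, and the part of the strand setting in the values was not tested. For many of the overlapping symbols the opposite-strand gene is given beside the values. The others, with the partner of the longest overlap, were on the M1 side Bcl2l14 with 4933406J09Rik, Cdkn1a with AC167363.2, Cebpb with Tmem189, Ch25h with Gm26902, Cxcl10 with Art3, Gapdh with Iffo1, Il7 with Gm16685, Irf1 with Gm17334, Nfkb2 with AC114539.1, Pstpip2 with F830208F22Rik, Ptges3l with Rundc1, Slc7a2 with Gm26584, Sp110 with G530012D18Rik, Stab1 with Nt5dc2, Tap1 with Psmb9, Thbs1 with Gm29233, Tnfaip2 with Gm40578 and Tpi1 with Spsb2. On the M2 side they were 9130019P16Rik with Chn2, A430057M04Rik with Comtd1, Cdc37l1 with Ak3, Cebpa with Gm45091, Ctsl with Gm47123, Deptor with Gm9920, Dnmt3aos with Dnmt3a, Fer1l5 with Lman2l, Gm7457 with St8sia1, Hsp90b1 with 1810014B01Rik, Itga4 with Cerkl, Kcnq1ot1 with Gm27395, Lrrc51 with Lamtor1, Mbd4 with Gm44206, Mmp12 with Mmp1b, Nudt6 with Fgf2, Plcd4 with Zfp142, Pom121 with Nsun5, Ptchd1 with Gm15156, Slc7a7 with Oxa1l and Tex9 with Mns1. Of the genes past no threshold, Nsmaf overlaps Sdcbp, Rfx5 overlaps B230398E01Rik and Irf5 overlaps Tnpo3.

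The states separated on the first principal component, which held 80.9% of the variance between the 8 libraries, against 4.47% on the next. Of 2125 genes with enough counts, 616 were higher in M1 (29.0%) and 637 higher in M2 (30.0%) at an adjusted p under 0.05 by edgeR's quasi-likelihood test. The median log2 fold change (M1 over M2) was 1.49 over the genes higher in M1, -1.51 over those higher in M2 and -0.03 over all 2125. A difference of 4-fold or more was seen in 234 genes higher in M1 (11.0%) and in 203 higher in M2 (9.55%). In 1164 genes (54.8%) the 4 M1 and the 4 M2 levels did not overlap. These numbers are the background for every list below, since a gene taken at random from those tested was past the threshold more often than not. A gene was tested only with enough counts in at least 4 libraries. Of the 2125, 1184 had them in all 4 libraries of each state, 255 in all 4 of M1 but not of M2, 473 in all 4 of M2 but not of M1, and 213 in a mixture. A list member that passed through 1 state alone is one with more counts there, so the direction and median of such members follow in part from the filter, and the list counts below are descriptions. Counts were scaled by TMM, and scaling by total count alone shifted the median of all genes to -0.56 and gave 388 genes higher in M1 and 1012 higher in M2. The 10 symbols with the most counts took 35.4% of all M1 counts and 18.4% of all M2 counts.

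**Figure D1:**
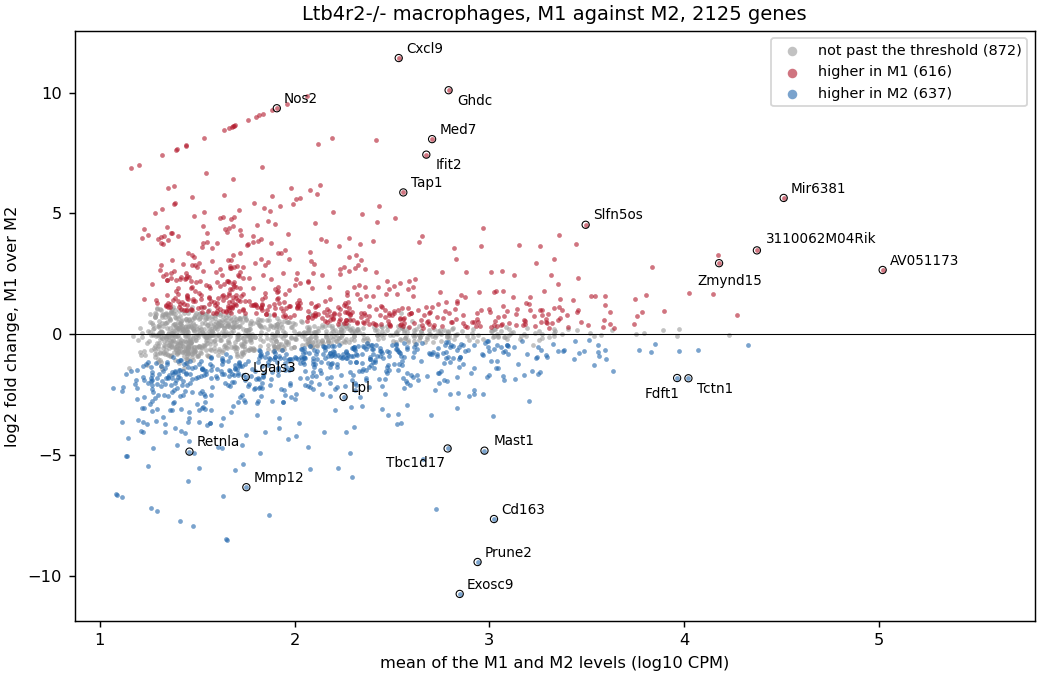
Each point is 1 of 2125 genes, with the mean level of both states on the horizontal axis (log10 CPM) and the log2 fold change of M1 over M2 on the vertical axis. Red marks the 616 genes higher in M1 and blue the 637 higher in M2 (edgeR, adjusted p under 0.05); the rising line of red points at the upper left holds genes with no counts in M2.

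Sequences are shown for a microRNA symbol with more counts in M1 than any symbol but 1, and, as examples of the letters searched for, for the promoters of 3 genes that carry a match, 2 of them higher in M1 and 1 higher in M2. All are RefSeq sequences of GRCm38.p6, the build of the files. In the mature microRNA the capitals mark the seed (bases 2 to 8), and its position is chr3:142623925-142623945 on the minus strand, inside the Gbp2 locus.
mmu-miR-6381: cAGGAUGCuggugacaugagu
The promoters run from 250 bases before to 50 bases after the start site. Capitals mark the interferon-stimulated response element (ISRE, TTTC followed after any 2 bases by TTTC, on either strand) in Gbp2 and Cxcl10, and the spacing bound by STAT6 (TTC followed after any 4 bases by GAA) in Retnla.
Gbp2, chr3:142620413-142620712, plus strand: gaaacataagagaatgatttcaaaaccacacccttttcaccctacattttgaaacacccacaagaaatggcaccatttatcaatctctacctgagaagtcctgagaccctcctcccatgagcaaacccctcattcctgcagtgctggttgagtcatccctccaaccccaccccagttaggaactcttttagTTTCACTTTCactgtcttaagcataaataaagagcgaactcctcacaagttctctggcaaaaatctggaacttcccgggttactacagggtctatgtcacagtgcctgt
Cxcl10, chr5:92348840-92349139, minus strand: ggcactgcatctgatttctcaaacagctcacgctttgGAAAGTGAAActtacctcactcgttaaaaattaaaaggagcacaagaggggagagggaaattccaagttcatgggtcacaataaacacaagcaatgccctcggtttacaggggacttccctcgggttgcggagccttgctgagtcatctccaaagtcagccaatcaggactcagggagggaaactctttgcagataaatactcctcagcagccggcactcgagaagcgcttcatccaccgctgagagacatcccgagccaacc
Retnla, chr16:48842359-48842658, plus strand: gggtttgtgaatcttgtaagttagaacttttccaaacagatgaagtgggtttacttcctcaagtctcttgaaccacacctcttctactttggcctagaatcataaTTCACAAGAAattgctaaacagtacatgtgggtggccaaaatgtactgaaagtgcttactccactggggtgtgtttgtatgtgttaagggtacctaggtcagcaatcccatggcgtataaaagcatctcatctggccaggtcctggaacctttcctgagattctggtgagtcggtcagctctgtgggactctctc

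The ISRE match began 59 bases before the start site in Gbp2 and 213 before it in Cxcl10, and the STAT6 match 145 before it in Retnla. Over all 27025 promoters of the same length, 3.99% held the ISRE letters and 8.01% the STAT6 spacing, both strands searched. Among the genes higher in M1, 468 had a promoter in the table and 37 of them (7.91%) held the ISRE letters, and among those higher by 4-fold or more it was 24 of 173 (13.9%). The ISRE share was 4.29% for the genes higher in M2 and 2.52% for the 713 genes past no threshold. STAT6 letters were in 7.05% of the promoters of genes higher in M1 and 6.73% of those higher in M2, and among those higher by 4-fold or more in 12 of 173 (6.94%) and 15 of 155 (9.68%). For the protein-coding genes opposite the symbols that differed by 4-fold or more, the ISRE shares were 5 of 51 (9.80%) on the M1 side and 3 of 88 (3.41%) on the M2 side, and the STAT6 shares 3 of 51 (5.88%) and 4 of 88 (4.55%), so the order of the STAT6 shares was the reverse of that for the symbols themselves. The search was chosen after values had been seen, and a match is a description of letters, not of binding.

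M1 macrophages had 82 genes with at least 20 counts that had no count in any M2 library, and 80 of them were present in all 4 M1 libraries. Folds for such genes are lower bounds, set against 3 counts over the 4 M2 libraries. Cxcl9, a chemokine for CXCR3 on T cells, had 294, 336, 270 and 294 counts in M1 and none in M2, at least 520-fold higher (adjusted p = 2.8e-12 by edgeR). Cxcl10, another ligand of CXCR3, had 48, 50, 37 and 38 counts in M1, at least 75.3-fold higher. Ccl5, a chemokine, had 52, 98, 70 and 51, at least 118-fold higher. All 3 chemokines were without counts in every M2 library.

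Nos2, the inducible nitric oxide synthase and the classical marker of this state, had 44, 83, 88 and 68 counts in M1 and none in M2, at least 123-fold higher. Ptgs2, the inducible enzyme of prostaglandin synthesis, had 59, 78, 53 and 43, at least 101-fold higher, and it was the 1 member tested of 20 leukotriene and prostanoid genes. The same pattern of no M2 counts was seen for Tlr1, a receptor for bacterial lipopeptides (101, 86, 50 and 80 counts in M1), and for Bcl2l14, a BCL2-family gene (111, 121, 106 and 70). The secreted lectin Lgals9 had 43, 73, 75 and 51, the lymphocyte growth factor Il7 38, 68, 40 and 55, the protein C receptor Procr 32, 69, 43 and 30, and the GTPase Gbp4 31, 62, 71 and 57. Each of these 6 was at least 75.7-fold higher in M1. Ghdc had 645, 571, 521 and 431 counts in M1 and 0, 0, 2 and 0 in M2, a ratio of 1415 with a 95% counting interval of 391 to 11693, and at least 744-fold without M2 replicate 3.

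Of 22 M1 markers, 11 were tested, 10 were higher in M1 and none higher in M2, with a median log2 fold change of 6.16 against -0.03 over all genes. Of the 11, 10 passed the filter through M1 alone, so their direction was largely set by it, and the exception was Irf5, past no threshold. The summed level of all 22 was 2960 to 3397 CPM in the M1 libraries and 943 to 1184 in the M2 libraries. The M2 sum rests largely on Irf5, which averaged 526 counts over the 8 libraries (log2 fold change 0.22). It was the only 1 of the 22 with a mean of at least 10 counts in M2. Acod1, the enzyme that makes itaconate, had 73, 128, 109 and 103 counts in M1 and 0, 2, 0 and 6 in M2 (log2 fold change 5.98, SE 0.46). Cd38, Irf1 and Slc7a2 were also among the 10.

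**Figure D2:**
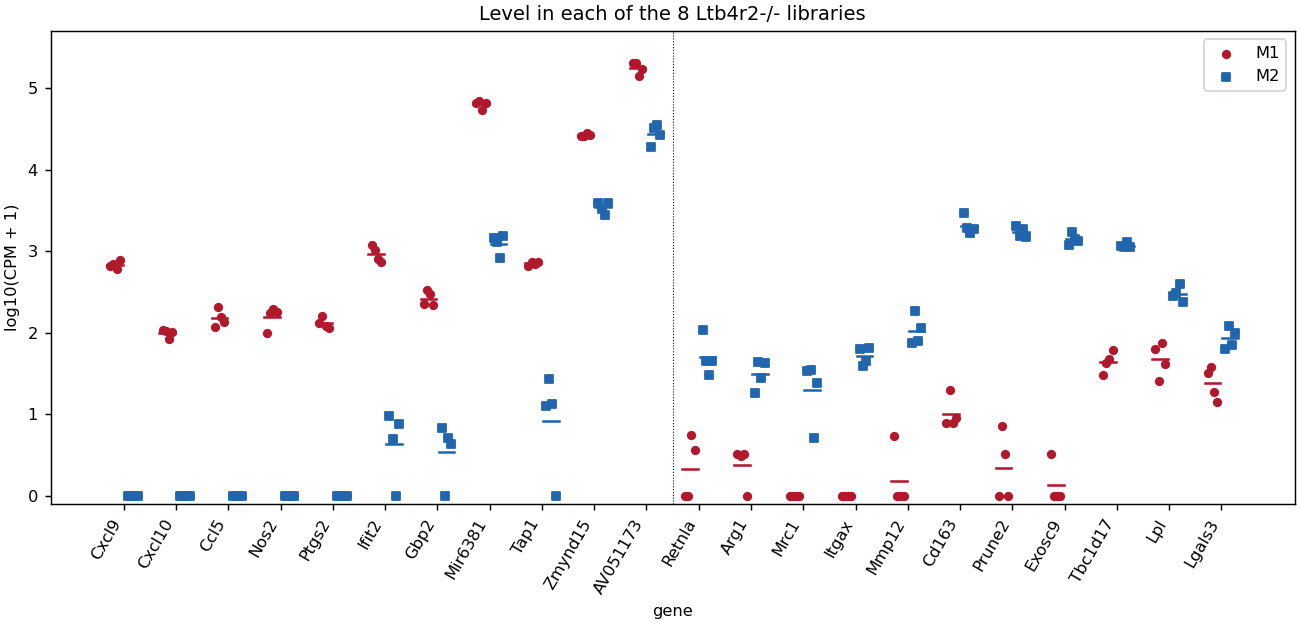
Levels of 22 genes in each library on a log10(CPM + 1) scale, with red circles for the 4 M1 libraries, blue squares for the 4 M2 libraries and a bar at the mean of the 4 plotted values. Genes left of the dotted line were higher in M1 and those right of it higher in M2; Cxcl9, Cxcl10, Ccl5, Nos2 and Ptgs2 lie at 0 in every M2 library, and Mrc1 and Itgax in every M1 library.

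All 12 tested members of the type I interferon list were higher in M1, with a median log2 fold change of 4.48. Of the 12, 9 passed the filter through M1 alone, and the other 3, Parp9, Dtx3l and Eif2ak2, had enough counts in both states. Ifit2, which binds foreign RNA, had 529, 505, 359 and 280 counts in M1 and 6, 2, 0 and 4 in M2 (log2 fold change 7.44, SE 0.29). Rsad2, the antiviral viperin, had 84, 146, 131 and 99 against 0, 0, 0 and 2, a ratio of 300 with a 95% counting interval of 82.7 to 2487, and at least 147-fold without M2 replicate 4. Both genes have no opposite-strand exon, and their groups were far from overlapping. Parp9 and Dtx3l, whose proteins act as a complex, overlap by 458 bases on opposite strands, and both were higher in M1, Parp9 by 2.96 (SE 0.13) and Dtx3l by 2.87 (SE 0.18) on the log2 scale. Irf7, the factor that amplifies type I interferon, was higher by 4.48 (SE 0.42), as was its opposite-strand neighbour Phrf1 by 5.12 (SE 0.53).

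The interferon-induced GTPases, which coat the vacuoles of intracellular pathogens, were higher in M1 in all 8 tested of 19 members, with a median of 5.91, and all 8 passed the filter through M1 alone, which largely fixed that direction. Gbp2 had 99, 160, 132 and 81 counts in M1 and 4, 0, 2 and 2 in M2 (log2 fold change 6.16, SE 0.36), Gbp5 71, 99, 52 and 66 against 6, 1, 2 and 0, and Gbp7 92, 87, 106 and 81 against 3, 2, 1 and 3. The microRNA symbol Mir6381, printed above, overlaps a Gbp2 exon by 24 bases on the opposite strand. It had 29152, 33443, 23992 and 24952 counts in M1 and 1013, 636, 405 and 925 in M2 (log2 fold change 5.64, SE 0.17, adjusted p = 1.6e-13 by edgeR). Both symbols of the locus were higher in M1, while Mir6381 held 111539 M1 counts and Gbp2 472. Polyadenylated RNA was sequenced, and which transcript of the locus the reads come from cannot be told apart.

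Antigen presentation showed the same direction in all 9 of its tested members (22 in the list), with a median of 2.08, and 6 of the 9 had enough counts in both states. Tap1, which moves peptides into the endoplasmic reticulum, had 296, 355, 314 and 279 counts in M1 and 8, 13, 6 and 0 in M2 (log2 fold change 5.87, SE 0.32). The other named members were the class I genes H2-T23 (4.09, SE 0.44), H2-K1 (2.13, SE 0.31) and B2m, the shared class I light chain (2.17, SE 0.25). Under scaling by total count, 8 of the 9 stayed past the threshold. Nlrc5, the transactivator of class I genes, had 2, 4, 2 and 4 counts in M1 and none in M2, too few for the fit across genes (exact permutation test, two-sided p = 0.0286, the smallest that 4 against 4 allows). Its opposite-strand partner 9330175E14Rik had 211, 235, 222 and 219 against 17, 10, 8 and 11 (log2 fold change 4.65, SE 0.18).

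RNA sensing and PARP genes were higher in M1 for 7 of 8 tested (median 2.91). The filter was passed through M1 alone by 5 of the 8 and through M2 alone by 1, so these directions were largely set by it. Parp9 and Sp110 had enough counts in both states, and both were higher in M1. Sp110, a nuclear body protein induced by interferon, had 825, 893, 855 and 563 counts in M1 and 73, 45, 23 and 53 in M2 (log2 fold change 4.41, SE 0.18), and Parp14 57, 46, 54 and 33 against 8, 4, 2 and 4. The 1 exception was Parp2, a DNA repair enzyme, with 8, 16, 16 and 7 counts in M1 and 106, 71, 115 and 101 in M2 (log2 fold change -2.70, SE 0.29). In M0 its level was 34.7 CPM on the scale of all 24 libraries, near the 28.4 of M1 and below the 182 of M2. In the NF-kB list 3 of 21 genes were tested, and all 3 were higher in M1 (median 2.17). Sod2, the mitochondrial superoxide dismutase, was higher by 3.78 (SE 0.49) and Tnfaip2 by 2.17 (SE 0.42). Nfkb2, a subunit precursor of the factor itself, was higher by 1.16 (SE 0.17). Sod2 and Tnfaip2 passed the filter through M1 alone, and Nfkb2 had enough counts in both states.

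**Figure D3:**
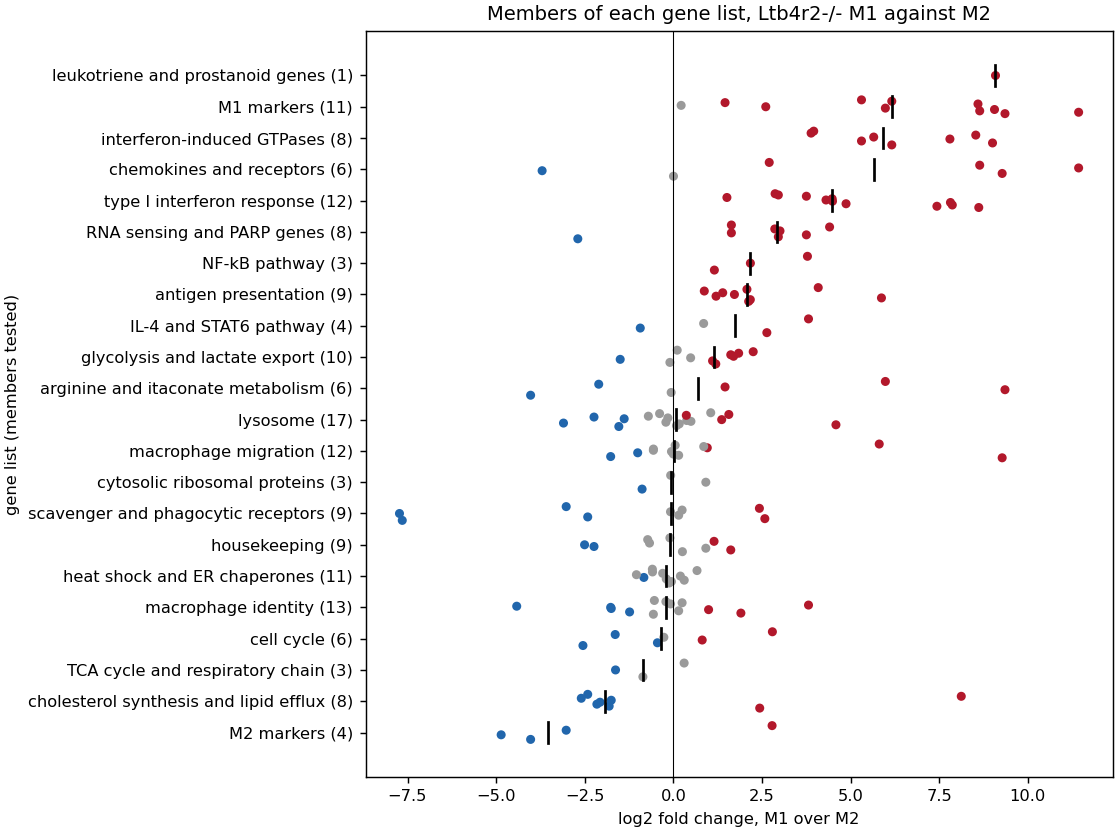
Log2 fold changes (M1 over M2) of the tested members of 22 gene lists, with red and blue for genes higher in M1 and M2 (edgeR, adjusted p under 0.05), grey for the others and a black bar at the list's median. The interferon, GTPase and antigen-presentation lists hold red points only, and the M2 marker and cholesterol lists have the lowest medians.

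The 6 symbols with the most M1 counts all lie opposite another gene. AV051173 alone held 14.7% of M1 counts and 3.19% of M2 counts. Its M1 libraries had 91364, 99847, 62944 and 64021 counts and its M2 libraries 13259, 16309, 17273 and 16288 (log2 fold change 2.66, SE 0.17). RefSeq places it at chr4:116684962-116686022 on the minus strand (GRCm38.p6), where it overlaps the start of Prdx1 at chr4:116685544-116700822 on the plus strand. Prdx1, a peroxidase that removes hydrogen peroxide, had 166, 228, 143 and 93 counts in M1 and 26, 28, 26 and 40 in M2, a log2 fold change of 2.74 (SE 0.23). The symbols thus differed by a similar fold, though AV051173 had 318176 M1 counts and Prdx1 had 630.

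Zmynd15 lies opposite Cxcl16, a membrane-bound chemokine and scavenger receptor, with 552 bases in common. Zmynd15 had 11741, 12614, 12599 and 9942 counts in M1 and 2741, 1659, 1351 and 2351 in M2 (log2 fold change 2.94, SE 0.11), and Cxcl16 had 99, 152, 136 and 133 against 34, 16, 22 and 33 (2.70, SE 0.21). Slfn5os and Slfn5, an interferon-induced gene, share 559 bases and were higher in M1 by 4.53 (SE 0.15) and 4.41 (SE 0.45). 1700071M16Rik, opposite the secreted phospholipase Pla2g7, was higher by 3.27 (SE 0.20), and Pla2g7 by 4.09 (SE 0.65). Brip1os, opposite the Mediator subunit Med13, was higher by 2.78 (SE 0.10), and Med13 by 2.16 (SE 0.40), while Ints2, which Brip1os also overlaps, by 512 bases, was higher in M2 (-0.73, adjusted p = 0.0023 by edgeR). Tmem132a, with 41442 M1 counts, lies opposite Slc15a3, a lysosomal peptide and histidine transporter, and they were higher by 0.78 (SE 0.09) and 1.67 (SE 0.22). Med7, another Mediator subunit, had 478, 462, 447 and 385 counts in M1 and 2, 0, 4 and 2 in M2, a log2 fold change of 8.08 (SE 0.25), and its partner 2310031A07Rik was not analysed here.

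Other overlapping symbols went opposite ways. 3110062M04Rik had 18611, 22783, 17691 and 16962 counts in M1 and 3912, 1705, 1385 and 2270 in M2 (log2 fold change 3.47, SE 0.16), while Tmem140, with which it shares 2168 bases, had 41, 26, 22 and 15 against 150, 153, 139 and 170 (-2.20, SE 0.23). Pank2, a kinase of coenzyme A synthesis, was higher in M1 by 3.67 (SE 0.15) and its partner Rnf24 higher in M2 (-0.84, SE 0.11). Fancl, of the Fanconi anaemia pathway, was higher in M1 by 2.44 (SE 0.09), while Vrk2, with which it shares 462 bases, was higher in M2 (-1.61, SE 0.25). Over the 364 overlapping pairs with both symbols tested, 93 had both past the threshold in the same direction and 43 in opposite directions, and Pearson's r of their log2 fold changes was 0.40 across pairs, which share their libraries and can share reads.

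**Figure D4:**
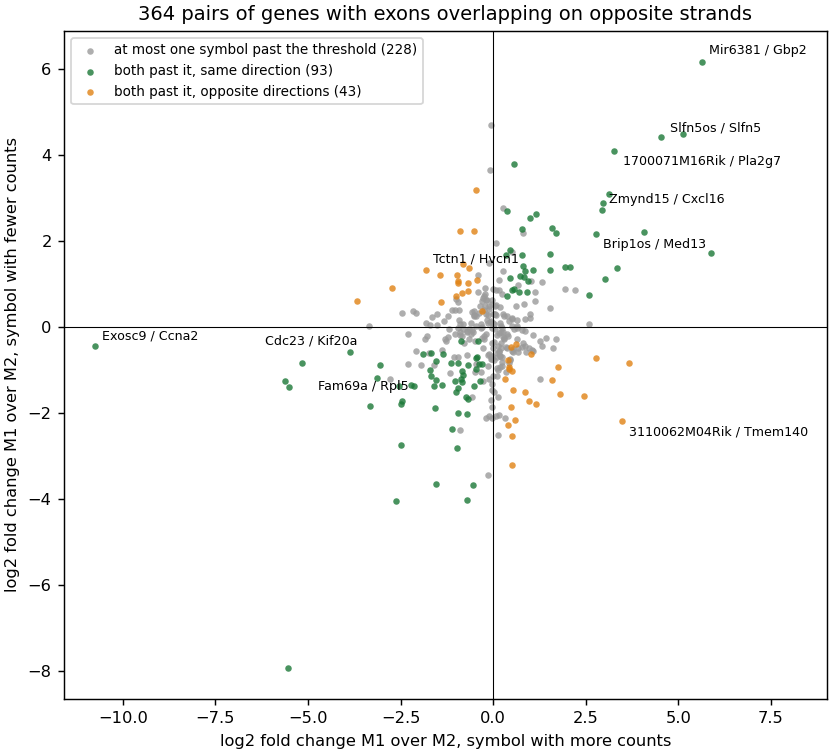
Each point is 1 of 364 pairs of genes with exons overlapping on opposite strands, with the log2 fold change (M1 over M2) of the symbol that has more counts on the horizontal axis and of the other on the vertical axis. Green marks the 93 pairs past the threshold in the same direction (edgeR, adjusted p under 0.05) and orange the 43 in opposite directions; Mir6381 with Gbp2 lies at the upper right and Exosc9 with Ccna2 at the far left.

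On the M2 side, 71 genes with at least 20 counts in M2 had none in M1, and 65 of them were present in all 4 M2 libraries. The classical M2 markers were at low counts. Retnla, resistin-like alpha, had 74, 22, 14 and 27 counts in M2 and 0, 0, 2 and 1 in M1, a ratio of 35.0 with a 95% counting interval of 11.7 to 172. Arg1, which hydrolyses arginine to ornithine, had 12, 21, 13 and 25 against 1, 1, 1 and 0, a ratio of 18.1 (5.96 to 90.0). Clec7a, the beta-glucan receptor dectin-1, had 59, 24, 25 and 36 against 4, 6, 3 and 0 (log2 fold change -3.02, SE 0.50). In each of these genes the M1 and M2 libraries did not overlap.

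Mrc1, the mannose receptor CD206, had 23, 17, 2 and 14 counts in M2 and none in M1, at least 14.3-fold higher; it did not reach the counts for the fit across genes (exact permutation test, two-sided p = 0.0286, the smallest possible). Only 4 of the 24 M2 markers were tested, of which 3 were higher in M2 and 1 higher in M1, with a median of -3.53. The 3 passed the filter through M2 alone and the 1 through M1 alone, so these directions were largely set by it. The exception was Tgm2, a transglutaminase, with 29, 49, 23 and 47 counts in M1 and 8, 8, 2 and 10 in M2 (log2 fold change 2.79, SE 0.42). It overlaps Gm20412 on the opposite strand by 633 bases.

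Other genes with few or no M1 counts lay outside that list. Mmp12, the macrophage elastase, had 51, 90, 38 and 70 counts in M2 and 2, 0, 0 and 0 in M1, a ratio of 95.4 (95% counting interval 26.1 to 792), and at least 47.3-fold without M1 replicate 1. Itgax, the integrin CD11c, had 43, 19, 21 and 39 in M2 and none in M1, at least 31.1-fold higher. Deptor, an inhibitor of mTOR, Tex9 and Ptchd1 were likewise without counts in M1, with 141, 203 and 197 counts over the 4 M2 libraries. Rnase2a, a ribonuclease of the eosinophil-associated family, had 38, 11, 6 and 38 in M2, and Gm32511 had 21, 5, 46 and 23; neither entered the fit across genes.

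Cd163, the scavenger receptor for haemoglobin and haptoglobin, had 2065, 953, 809 and 1133 counts in M2 and 3, 9, 3 and 3 in M1 (log2 fold change -7.65, SE 0.27, adjusted p = 6.1e-13 by edgeR). Unstimulated Ltb4r2-/- macrophages give a reference for both states. On the scale of all 24 libraries Cd163 stood at 2775 CPM ± 359 (SD, n = 4) in M0, 2193 in M2 and 10.8 in M1. It was lower in M1 than in M0, with a log2 fold change of -7.94 (SE 0.25), while M2 against M0 gave -0.34 (SE 0.15, adjusted p = 0.089 by edgeR). Both contrasts use the same M0 libraries. Prune2 had 1428, 760, 905 and 917 counts in M2 and 0, 3, 1 and 0 in M1. It stood at 1375 CPM in M0, 2.29 in M1 and 1814 in M2. Clec9a, Deptor and Cebpa, the factor C/EBP-alpha, were also lower in M1 than in M0, and M2 against M0 gave -0.19, -0.03 and -0.54, none past the threshold. Retnla and Mmp12 differed from these, with no count in M0 and 58.2 and 117 CPM in M2.

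The largest fold in this direction was that of Exosc9, which encodes a subunit of the RNA exosome, with 822, 851, 676 and 819 counts in M2 and 1, 0, 0 and 0 in M1. The ratio was 2427 with a 95% counting interval of 435 to 95877, and at least 602-fold without M1 replicate 1. Exosc9 shares 510 bases with Ccna2, cyclin A2, on the opposite strand, which had 272, 277, 248 and 277 counts in M1 and 499, 455, 443 and 506 in M2 (log2 fold change -0.45, SE 0.12). Tbc1d17, opposite Il4i1 over 3423 bases, had 13, 20, 21 and 23 counts in M1 and 805, 559, 626 and 690 in M2 (log2 fold change -4.73, SE 0.17). Il4i1, named for its induction by IL-4, had 19 counts in M1 and 26 in M2. Atf5, a stress-response factor that also touches Il4i1, was higher in M2 (-0.94, SE 0.12).

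Further symbols of this kind were Mast1, opposite the lysosomal nuclease Dnase2a (113 counts in M1 and 4191 in M2, log2 fold change -4.82, SE 0.16), and Cdc23, opposite the mitotic kinesin Kif20a (43 and 2053, -5.17, SE 0.20). Kif20a itself was higher in M2 as well (-0.84, SE 0.12). Fam69a, opposite the ribosomal gene Rpl5, was higher in M2 by a log2 fold change of -3.06 (SE 0.12), and Rpl5 by -0.88 (SE 0.16). 9130019P16Rik, Nudt6, Mbd4, Gm7457, Kcnq1ot1 and Dnmt3aos, all with an opposite-strand overlap, had log2 fold changes between -7.50 and -5.60. Gm7457 and Kcnq1ot1 had 1 count each in M1, with ratios of 260 (95% counting interval 46.4 to 10317) and 143 (25.4 to 5688), and without the library that holds it they were at least 62.9-fold and 35.6-fold higher in M2. Cdc37l1 (-2.55), Fer1l5 (-2.46) and A430057M04Rik (-2.48) completed the genes with the smallest p in this direction.

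Tctn1 and Fdft1 were among the 6 symbols with most counts in M2. Tctn1 had 10533, 8009, 8708 and 9997 counts in M2 and 2150, 2295, 1941 and 1752 in M1 (log2 fold change -1.82, SE 0.09). Its opposite-strand partner Hvcn1, the voltage-gated proton channel, went the other way (340, 430, 396 and 336 counts in M1, 270, 150, 161 and 214 in M2, log2 fold change 1.32, SE 0.12). Map3k12, opposite Pcbp2, was higher in M2 (-0.67, SE 0.08), and so was Gm15441, opposite Txnip (-0.43, SE 0.11). Snx22, opposite the cyclophilin gene Ppib, had a log2 fold change of -0.04 (SE 0.09, adjusted p = 0.68 by edgeR), and -0.57 under scaling by total count, where it passed the threshold (adjusted p = 3.1e-06).

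Of 8 tested genes of cholesterol synthesis and lipid efflux (26 in the list), 6 were higher in M2 and 2 higher in M1, with a median of -1.94. In both states enough counts were present for 5 of them, of which 4 were higher in M2 and 1 higher in M1. Fdft1, squalene synthase, had 12371, 7066, 6013 and 7885 counts in M2 and 2168, 1846, 1570 and 1561 in M1 (log2 fold change -1.81, SE 0.12). It lies opposite the protease gene Ctsb over 774 bases. Sqle, the next enzyme of the pathway, has no opposite-strand exon and had 159, 151, 167 and 186 in M2 against 37, 36, 23 and 20 in M1 (-2.16, SE 0.20). Lpl, lipoprotein lipase, had 199, 152, 192 and 145 against 28, 12, 33 and 15 (-2.60, SE 0.26), and Apoe, which carries cholesterol out of macrophages, 115, 114, 191 and 96 against 26, 26, 38 and 31 (-1.75, SE 0.29). Ch25h, which makes 25-hydroxycholesterol, was the opposite case, with 34, 31, 35 and 21 counts in M1 and none in M2.

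Against M0, these lipid genes differed among themselves. Lpl was at 61.5 CPM in M0, 54.1 in M1 and 320 in M2 on the scale of all 24 libraries. Sqle was at 353 in M0, 70.9 in M1 and 309 in M2. Apoe was at 1087 in M0, and both states were lower, with log2 fold changes of -3.86 (SE 0.35) in M1 and -2.15 (SE 0.30) in M2.

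Of 10 tested glycolysis genes, 6 were higher in M1 and 1 higher in M2, with a median of 1.15. The filter was passed through M1 alone by 3 of the 10. Enough counts in both states were present for 5, of which 2 were higher in M1 and 1 higher in M2. Pkm, the last enzyme of the pathway to pyruvate, had 59, 73, 92 and 35 counts in M1 and 28, 16, 22 and 27 in M2 (log2 fold change 1.84, SE 0.27), and Ldha, which turns pyruvate into lactate, 20, 19, 15 and 11 against 2, 7, 2 and 6 (2.25, SE 0.48). Tpi1 (1.70, SE 0.34) and Gapdh (1.62, SE 0.44) were in the same direction. Pfkp, the platelet form of phosphofructokinase, was higher in M2 (-1.50, SE 0.16), and it shares 748 bases with Pitrm1. Under scaling by total count 4 of the 6 genes stayed past the threshold. In the list of the TCA cycle and respiratory chain 3 of 33 genes could be tested and 1 was past the threshold. This was Pdha1, a subunit of pyruvate dehydrogenase, higher in M2 (-1.63, SE 0.34), opposite Map3k15, also higher in M2 (-0.75, SE 0.10). Through M2 alone 2 of the 3 passed the filter, and 0 had enough counts in both states. The summed level of the 33 genes was 123 to 203 CPM in M1 and 246 to 297 in M2, without overlap.

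The enzymes that compete for arginine had opposite directions, Nos2 in M1 and Arg1 in M2 as given above, and so had transporters of the list. Slc7a2, which brings arginine in, had 20, 18, 22 and 13 counts in M1 and 14, 11, 8 and 1 in M2 (log2 fold change 1.46, SE 0.49), a difference that was lost under scaling by total count. Slc7a7 had 3, 4, 2 and 3 against 25, 10, 17 and 18 (-2.11, SE 0.45). In all, 3 of 6 tested genes of arginine and itaconate metabolism were higher in M1 and 2 higher in M2, with a median of 0.70. The filter was passed through M1 alone by 3 of the 6 and through M2 alone by 2, so these directions were largely set by it. The 1 member with enough counts in both states was past no threshold.

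Lysosome genes had no common direction: of 17 tested, 4 were higher in M1 and 4 higher in M2 (2 and 8 under scaling by total count), with a median of 0.09. Ctsc, the protease that activates granule enzymes, had 97, 149, 93 and 93 counts in M1 and 10, 6, 2 and 5 in M2 (log2 fold change 4.59, SE 0.29). Npc2, which carries cholesterol out of lysosomes, was higher in M1 by 1.57 (SE 0.28). Ctsl was higher in M2 (-3.10, SE 0.56), as was Ctsa (-1.54, SE 0.20), which overlaps Pltp, a phospholipid transfer protein that was also higher in M2 (-0.79, SE 0.12). Scavenger and phagocytic receptors were divided, with 4 of 9 higher in M2, Cd163, Itgax and Clec7a among them, and 2 higher in M1, with a median of -0.08. Stab1, a scavenger receptor often used as an M2 marker, was 1 of those higher in M1, with 824, 781, 841 and 632 counts against 222, 138, 138 and 177 (2.58, SE 0.11), and its M0 level of 1363 CPM lay between the 1893 of M1 and the 306 of M2. The filter was passed through M2 alone by 4 of these 9 receptors and through M1 alone by 1. Stab1 was among the 3 with enough counts in both states, of which 1 was higher in M1 and 0 higher in M2.

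The study asked about macrophage migration, and of 32 genes of that list 12 were tested, 3 higher in M1 and 2 higher in M2 (2 and 4 under scaling by total count), with a median of 0.03. Both states had enough counts for 4 of the 12, with 1 higher in M1 and 1 higher in M2. Besides Ccl5, Thbs1, the matrix protein thrombospondin, was higher in M1, with 95, 159, 111 and 89 counts against 6, 4, 0 and 0 (log2 fold change 5.81, SE 0.43). Lgals3, galectin-3, had 14, 18, 8 and 5 counts in M1 and 43, 59, 34 and 60 in M2 (log2 fold change -1.77, SE 0.36, adjusted p = 4.8e-04 by edgeR), and the groups did not overlap. Its level was 19.8 CPM in M0, 27.1 in M1 and 91.0 in M2 on the scale of all 24 libraries. Itga4, an integrin subunit, was higher in M2 (-1.01, SE 0.27). In the list of chemokines and receptors, 4 of 6 were higher in M1 (median 5.67), and Ccl9, a ligand of CCR1, was higher in M2 with 18, 20, 14 and 22 counts against 2, 0, 2 and 0. Passing the filter through M1 alone were 3 of these 6, and 1 passed through M2 alone. The 2 with enough counts in both states included 1 higher in M1 and 0 higher in M2.

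Of 21 IL-4 and STAT6 pathway genes, 4 had enough counts for a test. Stat6 itself had 103, 86, 64 and 82 counts in M2 and 28, 37, 46 and 24 in M1 (log2 fold change -0.93, SE 0.22), and it touches Nab2 on the opposite strand over 40 bases. Il2rg, the common chain of the IL-4 receptor, was higher in M1 by 2.64 (SE 0.51), and so was Cebpb, the factor C/EBP-beta, by 3.81 (SE 0.48). Klf4 had a log2 fold change of 0.85 (SE 0.41, adjusted p = 0.082 by edgeR). The median of these 4 tested genes was 1.75. Stat6 was the 1 with enough counts in both states, and 2 passed the filter through M1 alone.

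Genes that mark macrophages as such were measured in both states, 13 of 24 in the list tested. Of these, 3 were higher in M1 and 4 higher in M2 (2 and 7 under scaling by total count), with a median of -0.21. For 7 of the 13 both states had enough counts, with 1 higher in M1 and 2 higher in M2. Adgre1, the F4/80 antigen, had 45, 40, 24 and 36 counts in M1 and 16, 7, 9 and 19 in M2 (log2 fold change 1.91, SE 0.34), and Lyz2, lysozyme, 28, 42, 20 and 28 against 160, 92, 35 and 87 (-1.23, SE 0.31). Cebpa had 0, 0, 2 and 2 against 13, 31, 31 and 45 (-4.42, SE 0.71), the reverse of Cebpb. Of 6 tested cell cycle genes, 2 were higher in M1, the inhibitor Cdkn1a (2.79, SE 0.46) and Ccnd1 (0.81, SE 0.15), and 3 higher in M2, among them Mki67 with 0, 9, 2 and 2 counts in M1 and 24, 18, 27 and 31 in M2 (-2.55, SE 0.58), with a list median of -0.36. Ccnd1 was lost under scaling by total count and shares 1100 bases with Oraov1. Only Ccna2 and Ccnd1 of these 6 had enough counts in both states.

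Of 11 tested heat shock and ER chaperone genes, none was higher in M1 and 1 higher in M2 (6 under scaling by total count), the ER chaperone Hsp90b1 (-0.83, SE 0.21), with a list median of -0.20. Of the 28 cytosolic ribosomal protein genes only 3 could be tested, of which Rpl5 was higher in M2 and 2 passed no threshold, with a median of -0.08. The summed level of all 28 was 380 to 431 CPM in the M1 libraries and 623 to 930 in the M2 libraries, without overlap. This sum rests in part on Rpl5, which averaged 145 counts per library and shares 953 bases with Fam69a. Among 9 housekeeping genes, 2 were higher in M1 and 2 higher in M2 (median -0.10): Gapdh and Tubb5 (1.15, SE 0.34) against Gusb (-2.24, SE 0.55) and Eef1a1, the elongation factor, with 12, 6, 6 and 4 counts in M1 and 50, 53, 43 and 61 in M2 (-2.50, SE 0.35). Actb had 105, 111, 86 and 77 counts in M1 and 121, 121, 59 and 112 in M2, and its levels overlapped. Actb and Tubb5 were the 2 of these 9 with enough counts in both states.

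The same contrast in WT macrophages, from 8 other libraries, gave 667 of 2129 genes higher in M1 (31.3%) and 629 higher in M2 (29.5%). Over the 1961 genes tested in both genotypes, the log2 fold changes had a Pearson's r of 0.96 across genes, which are not independent replicates. Genes without counts in 1 state, whose fitted values depend on the prior count, are included in it. Of 1176 genes past the threshold in Ltb4r2-/- and tested in WT, 1046 were past it in the same direction and none in the opposite direction. The difference itself was tested as the interaction of genotype with state over 3047 genes in 24 libraries. By edgeR 0 genes (0%) passed an adjusted p under 0.05, with 139 (4.56%) at an unadjusted p under 0.05, and DESeq2 gave 0 and 152.

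**Figure D5:**
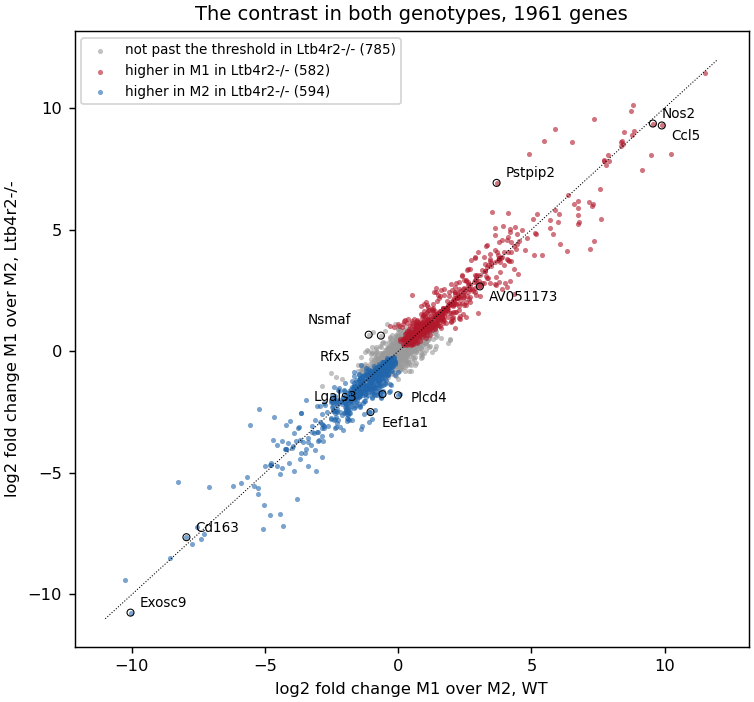
Log2 fold change (M1 over M2) of 1961 genes in WT (horizontal axis) and in Ltb4r2-/- macrophages (vertical axis), with the dotted line marking equal values and colours showing the call in Ltb4r2-/-. Points lie along the line (r = 0.96), with Exosc9 and Cd163 at the lower left, while Pstpip2, Nsmaf and Plcd4 are among the named points away from it. Nos2 and Ccl5, at the upper right, had no M2 counts in either genotype, so their positions depend on the prior count.

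The genes with the smallest interaction p are given for their values, since none passed the adjustment. Nsmaf had a log2 fold change of 0.68 (SE 0.36) in Ltb4r2-/- and -1.11 in WT, a difference of 1.84 (SE 0.44, adjusted p = 0.38 by edgeR). Rfx5, a factor of class II genes, had 0.64 and -0.65, a difference of 1.34 (SE 0.35, adjusted p = 0.38). Pstpip2, Ptges3l and Atf5 had differences of 3.29, 0.98 and 0.58 in the same direction. Lrrc51 had -1.72 in Ltb4r2-/- and -0.68 in WT, a difference of -0.99 (SE 0.25), Pom121 a difference of -1.37 (SE 0.35) and Plcd4 a difference of -1.75 (SE 0.48), with Crybb1 and Mapkapk2 at low counts.

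Lgals3 had a log2 fold change of -1.77 in Ltb4r2-/- and -0.59 (SE 0.27, adjusted p = 0.068 by edgeR) in WT, and the difference of -1.12 (SE 0.43) did not pass (adjusted p = 0.95). Ccl5, Nos2 and Cxcl9 had no counts in M2 of either genotype, so their fitted values depend on the prior count and are not compared between genotypes. Cd163 had -7.65 and -7.95. A p that misses the threshold does not show that the genotypes respond alike.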

How the data were processed

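RNA of 8 Ltb4r2-/- libraries, 4 in M1 and 4 in M2, was analysed, with WT M1, WT M2 and Ltb4r2-/- M0 libraries for reference. The raw counts per gene were deposited by the authors, who used Rosalind: trimming by cutadapt, alignment by STAR to the mm10 genome, counting by HTSeq; versions and the strand setting are not given in the sources used here. The deposited log2 values were made by the authors from the counts with DESeq2 size factors and were not used further. The submitters' processing notes also name FastQC.

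Of 24557 genes, 24209 were placed by GENCODE M21 (GRCm38), 26 symbols stored as dates were restored and the later copies of 5 duplicated symbols were dropped. Genes were kept by filterByExpr (minimum count 10, minimum total 15), scaled by TMM and entered into a quasi-likelihood test in edgeR, adjusted by Benjamini-Hochberg over all genes tested, at 0.05 (edgeR 4.0.16, limma 3.58.1, R 4.3.3). SE was obtained from the log2 fold change and the F statistic (size of the change over the root of F). CPM use TMM-scaled library sizes. The interaction and the contrasts with M0 used 1 fit of 24 libraries on 3047 genes. Genes outside the fit were compared by exact permutation of 4 against 4. Floors (3 counts over a group) and intervals cover counting error only. The edgeR p-values set a difference against the estimated spread between these libraries. An exact p is the share of arrangements with a difference at least as large.

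Named genes were, among those past the threshold with a mean of at least 20 counts and no overlap between groups, in each direction the 12 largest folds and 12 smallest p, the 4 with the smallest p in each list, the 6 with most counts in each state, the 6 highest of those with no counts in the other state, the 5 smallest interaction p in each direction, 5 genes of the study's question and the opposite-strand partners of these, of which the text gives a selection. Xist and Tsix, Prdx1, Actb, Irf7, Phrf1 and some list members were added after their values were seen. The 22 gene lists, 7 marker lists and other members were chosen with earlier results of these data known. Alternatives were DESeq2 1.42.0, scaling by RLE or total count, a mean count minimum of 50 or none, all 24 libraries (16 stimulated ones for the interaction), a replicate block, each library left out, and genes without opposite-strand overlap. The fits were tested on simulated data. Results for some genes and 1 motif are not reported here.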

Additional observations from a re-analysis of the deposited data

Results flagged for a closer look

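Each named gene was examined within the 4 M1 and within the 4 M2 libraries for a library far from the other 3. Of 285 groups of 4 examined, library totals and numbers of genes detected included, 19 had such a library. Chance gives about 1 in 20 for normally distributed values. That rate does not hold at low counts, where a group with counts in a single library is always flagged. No call of a named gene was lost when any of the 8 libraries was left out, but some ratios rest on 1 library that holds every count of the lower state. Without it the ratio becomes a lower bound against 3 counts over the other 3 libraries. That is at least 602-fold for Exosc9 and at least 47.3-fold for Mmp12 (without M1 replicate 1), at least 744-fold for Ghdc (without M2 replicate 3) and at least 147-fold for Rsad2 (without M2 replicate 4). It is at least 62.9-fold for Gm7457 (without M1 replicate 2) and at least 35.6-fold for Kcnq1ot1 (without M1 replicate 3).

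Among groups with at least 97 counts in each library, M1 replicate 1 was high in Ghdc (1443 CPM, the others 1146 to 1185) and low in Hvcn1 (761, the others 889 to 893). M1 replicate 3 was high in Zmynd15 (28279, the others 26177 to 26434). M2 replicate 3 was high in Tbc1d17 (1295, the others 1128 to 1155), and M2 replicate 2 in Map3k15 (5255, the others 4229 to 4351). In Lrrc51, M2 replicate 1 was low (181, the others 201 to 204).

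The other such groups had at most 9 counts in the library concerned. Cd163 stood at 18.7 CPM in M1 replicate 2 (9 counts), with the others at 6.71 to 7.98, and Il2rg at 14.8 CPM in M2 replicate 4 (9 counts), with the others at 2.87 to 4.14. Arg1 was at 0.0 CPM in M1 replicate 4 and at 2.08 to 2.24 in the others. In the remaining groups a single library had 1 to 4 counts and the other 3 had none. In M1 these were Xist (8.30 CPM), Ltb4r2 (4.49), Dnase2a (4.49), Mmp12 (4.47), Kcnq1ot1 (2.24), Exosc9 (2.24) and Gm7457 (2.08), and in M2 they were Ghdc (4.14), Ltb4r2 (3.28) and Rsad2 (3.28).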

How the results depend on the processing

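The counts of genes higher in M1 (616) and in M2 (637) stayed within 1.5 times under RLE scaling (631 and 625), DESeq2 (629 and 613), no filter (841 and 835) and all 24 libraries (804 and 808). Leaving out each library in turn gave 621 to 661 higher in M1 and 628 to 674 higher in M2. They moved further under total count scaling (388 and 1012, so that 27.7% rather than 49.2% of the calls were higher in M1). They also moved with a mean of at least 50 counts (322 and 341 of 915 genes). With the 645 genes that have no opposite-strand overlap they were 184 and 161, and 53.3% of these calls were higher in M1. An overlap was present in 65.5% of the placed genes higher in M1, 75.5% of those higher in M2 and 69.2% of those tested. The cause of that difference was not tested. Of the 1253 genes past the threshold, 1241 were called in the same direction under RLE scaling and 1025 under total count scaling, where 61 had the opposite sign. The replicate numbers were not taken as pairs, and pairing was not established. Same-numbered M1 and M2 deviations correlated by 0.13, 0.08, 0.04 and 0.07, and different-numbered ones by -0.11 to 0.08. For M1 replicates 1, 3 and 4 the same-numbered value was the highest. M1 replicate 2 was slightly nearer to M2 replicate 3 (0.082) than to M2 replicate 2 (0.0765). Tsix split by number in the same way in both states. A fit with the replicate block gave 586 and 617 genes.

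The interaction had 0 genes in each direction under all alternatives except no filter, where 3 had a smaller M1-over-M2 value in Ltb4r2-/- than in WT, 1700071M16Rik (log2 difference -0.53), AV051173 (-0.38) and Ctsa (-0.52); the cause was not tested. Of 2089 values of single genes under alternatives, 2073 kept direction and side of the threshold. The reversals were all in genes past no threshold: Actb (-0.27) and Ctsb (-0.43) under total count, Snx22 with all 24 libraries (0.0051), and, over the libraries left out in turn, Ctsb (-0.051 to 0.26), Snx22 (-0.080 to 0.11) and Tsix (-1.12 to 0.75). Slc7a2, Ccnd1, Tubb5 and Mpeg1 lost their call under total count scaling. A call was gained by Snx22 under total count (-0.57), Tsix without a filter (-0.52), and Nsmaf (0.72) and Rfx5 (0.69) with all 24 libraries. At 427824 to 612130 counts per library, 25 of 28 ribosomal and 30 of 33 respiratory genes were below the filter and were not tested singly. The parts of depth and of the strand setting in these low counts were not tested.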
